A study of Mus musculus with 8 samples.

Results

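Secreted factors that drive the growth and upkeep of blood and lymph vessels were followed across C2C12 myotubes, muscle fibre-like cells made by fusion of an established line of mouse myoblasts in low serum. The set was 9 genes defined by symbol (Vegfa, Vegfb, Vegfc, Pgf, Apln, Adm, Angpt1, Angpt2 and Fgf2), out of 18193 genes on the arrays. They were read by 15 probe sets out of 34945 that carry a single gene symbol, and each gene was led by the probe set with its highest mean log2 intensity over all 8 arrays. There were 4 groups of 2 arrays, described in the series as biological duplicates. Every culture was differentiated for 3 days in medium with 2% dialysed serum, infected with an adenovirus, and kept for 3 more days before total RNA was taken. The groups were GFP (virus for green fluorescent protein), GFP-PGC-1α (virus for a GFP-tagged PGC-1α), GFP+DFO and GFP-PGC-1α+DFO, the last pair with 100 µM of the iron chelator deferoxamine (DFO). All groups therefore carried an adenovirus and GFP, and no uninfected culture was analysed here. The coactivator was supplied by an overexpression virus, so its level was set by the construct.

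Muscle fibres signal to the endothelium through secreted ligands: VEGF-A and placental growth factor act on VEGF receptors, angiopoietins on the receptor Tie2, apelin and adrenomedullin on G-protein-coupled receptors. Low oxygen raises several of these genes through hypoxia-inducible factor (HIF), whose alpha subunit is marked for destruction by iron-dependent prolyl hydroxylases, and iron chelators such as DFO inhibit those enzymes. PGC-1α, a transcriptional coactivator of mitochondrial genes, is also known to raise Vegfa in muscle together with the nuclear receptor ERRα.

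The arrays had median intensities of 59.5 to 62.8 on a linear scale, and no detection call accompanies the values. A fold change of a gene near the array median is therefore set in part by background. Ppargc1a, the gene for PGC-1α, averaged 33.0 in GFP and 7123 in GFP-PGC-1α, and 57.4 and 7820 in the same pair with DFO, so the arrays matched their construct labels. All 8 measured myotube markers were present, none lying below the array median on both arrays of a group, but their summed intensity moved with treatment. For those 8 it was 48145 to 50764 in GFP, 40717 to 41153 in GFP-PGC-1α, 20525 to 20994 in GFP+DFO and 13655 to 14896 in GFP-PGC-1α+DFO. The sum is weighted to bright genes such as Acta1, at 6065 to 12695. With DFO Myog changed by -5.08 in GFP and -6.30 in PGC-1α cultures on the log2 scale, down to 63.1, near the array median. Ckm changed by -3.28 and -4.00 and Mymk by -2.38 and -3.08, while Des changed by -0.27 and -0.24. The word myotubes below therefore names how the cultures were made, not their state with DFO. Myoblast markers (5 genes) also summed to less with DFO, 3361 to 3515 in GFP and 3124 to 3183 in GFP-PGC-1α against 715 to 722 and 273 to 366 with it. The ratio of the 5′ to the 3′ probe set of Actb, a sign of RNA integrity, was 0.897 to 0.921 without DFO and 0.753 to 0.868 with it. The mean log2 intensity of the 24 poly-A spike-in probe sets was 7.97 and 8.11 in GFP-PGC-1α+DFO and 8.35 to 8.77 in the other arrays. The part of these shifts in the results below was not tested, and in bulk RNA fewer cells of a type and less RNA per cell cannot be told apart.

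DFO gave the largest changes in the set. In GFP myotubes Pgf rose 32.2-fold, Apln 28.5-fold, Adm 2.63-fold, Vegfa 2.41-fold and Vegfc 2.09-fold, and Angpt1 fell to 0.327 of its level. By limma's moderated test, at an adjusted p under 0.05 over all genes, 5 of the 9 members were higher and 1 was lower. Over all genes 11.8% were called higher and 12.5% lower. The members' median log2 change was 1.11, against -0.02 over all genes.

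In PGC-1α myotubes the same 5 genes rose with DFO and Angpt1 fell. Pgf rose 52.1-fold, Apln 18.6-fold, Vegfc 2.85-fold, Adm 2.29-fold and Vegfa 1.69-fold, and Angpt1 fell to 0.0899 of its level without DFO. Over all genes 11.4% were called higher and 14.2% lower by limma. The median log2 change was 0.75 over the members and 0.01 over all genes.

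Without DFO, PGC-1α raised Vegfa 1.66-fold and Vegfb 2.63-fold over GFP. No member was called lower, and the other 7 did not pass the test. The share of all genes called higher was 4.96% and called lower 4.77%. The median log2 change was 0.35 over the members and -0.08 over all genes.

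With DFO present, PGC-1α raised Pgf 2.21-fold and Vegfc 2.27-fold, and lowered Angpt1 to 0.347 of its level in GFP+DFO. The other 6 members did not pass. Among all genes 6.93% were called higher and 12% lower. The median log2 change was 0.16 over the members and -0.05 over all genes. The comparisons share arrays: both effects of PGC-1α and both effects of DFO use the same 4 groups, so they are set side by side here and not correlated.

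**Figure D1:**
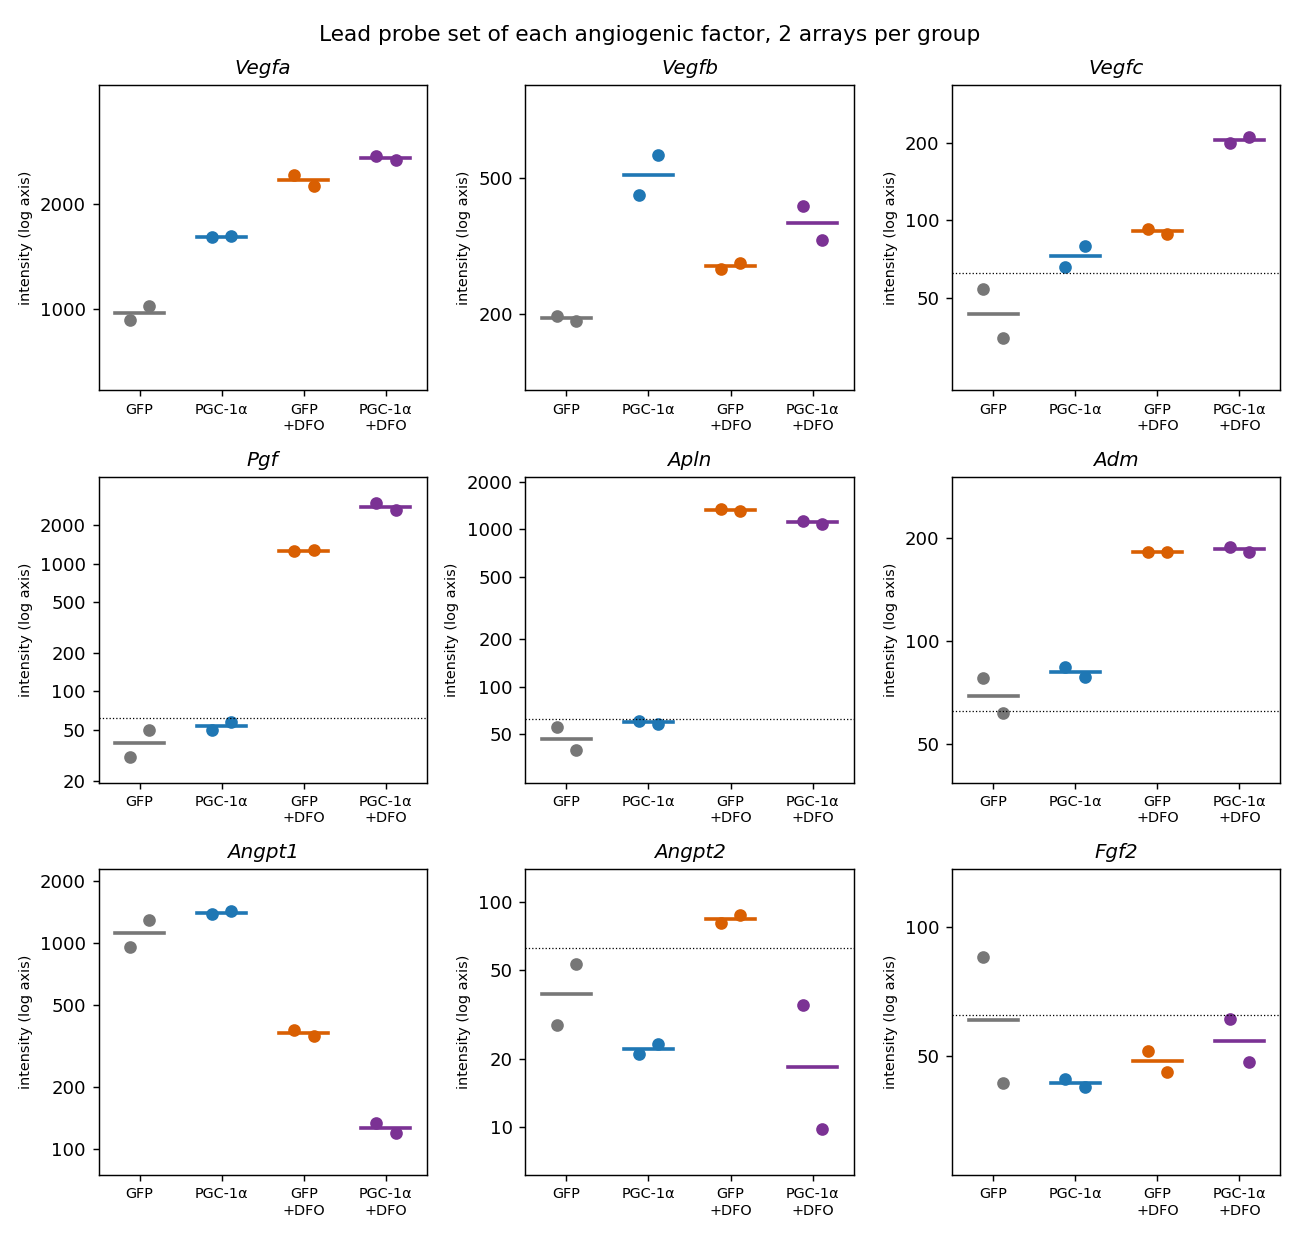
Deposited intensity of the lead probe set of each of the 9 genes on a log axis, with 1 point per array. A bar marks the geometric mean of the 2 arrays of a group. The dotted line marks the median of the array medians where it lies in range. Pgf and Apln lie at or below that line without DFO and at 1076 or more with it, Vegfb is highest in GFP-PGC-1α at 446 and 584, and Angpt1 is lowest in GFP-PGC-1α+DFO at 119 and 133.

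The promoters of 5 members are shown because these genes changed together with DFO (Pgf, Apln, Adm, Vegfa) or passed for PGC-1α and not for DFO (Vegfb, for contrast). Each is the 250 bases before an annotated RefSeq start in GRCm38.p6, read 5′ to 3′ on the gene's strand, with capitals at GCGTG on either strand (CACGC on the printed one), 1 of the 2 cores of the hypoxia response element searched for. The other core searched, ACGTG, is in none of these 5 windows, and no matches overlap. Pgf (chr12:85177314-85177563, minus strand) has 1 match, Adm (chr7:110627407-110627656, plus strand) has 2, Vegfb (chr19:6987652-6987901, minus strand) has 2, and neither Apln (chrX:48034854-48035103, minus strand) nor the upstream start of Vegfa (chr17:46032378-46032627, minus strand) has any. The second start of Vegfa (chr17:46025164-46025413, minus strand), not printed, lies downstream of the first, and its window holds 1 ACGTG and 1 GCGTG. Whether that window acts as a promoter in these cells was not tested.
Pgf: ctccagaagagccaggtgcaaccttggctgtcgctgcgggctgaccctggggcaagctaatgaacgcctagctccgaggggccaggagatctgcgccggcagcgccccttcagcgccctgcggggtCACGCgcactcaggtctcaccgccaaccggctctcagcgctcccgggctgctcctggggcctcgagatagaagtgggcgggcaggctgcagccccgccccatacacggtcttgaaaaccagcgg
Apln: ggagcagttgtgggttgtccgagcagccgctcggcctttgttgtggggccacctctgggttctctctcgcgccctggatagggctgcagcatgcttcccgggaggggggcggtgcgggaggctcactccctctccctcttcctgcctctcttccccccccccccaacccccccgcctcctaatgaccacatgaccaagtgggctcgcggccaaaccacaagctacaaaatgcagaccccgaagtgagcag
Adm: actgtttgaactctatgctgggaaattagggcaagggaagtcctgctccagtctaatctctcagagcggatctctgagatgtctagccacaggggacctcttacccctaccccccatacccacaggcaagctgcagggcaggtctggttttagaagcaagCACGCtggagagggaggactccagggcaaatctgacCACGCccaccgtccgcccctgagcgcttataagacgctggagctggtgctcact
Vegfa: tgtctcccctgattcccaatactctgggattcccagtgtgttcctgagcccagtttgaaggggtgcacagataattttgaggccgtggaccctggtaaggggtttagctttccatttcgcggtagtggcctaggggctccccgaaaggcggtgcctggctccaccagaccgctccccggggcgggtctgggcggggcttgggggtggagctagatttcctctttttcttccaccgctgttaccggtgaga
Vegfb: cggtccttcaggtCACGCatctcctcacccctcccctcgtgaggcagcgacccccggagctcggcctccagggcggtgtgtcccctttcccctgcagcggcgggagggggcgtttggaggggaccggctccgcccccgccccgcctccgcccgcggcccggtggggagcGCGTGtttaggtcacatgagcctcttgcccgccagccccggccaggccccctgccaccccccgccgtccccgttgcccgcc

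The RefSeq table matched 7 of the 9 members with 9 such windows, since Vegfa and Pgf have 2 starts each, and not Angpt1 or Angpt2. ACGTG or GCGTG was in 5 of the 9 windows, the downstream one of Vegfa among them, and in 38.6% of 32851 windows of the same length. Singly, ACGTG was in 16.6% and GCGTG in 28.2% of all windows. The extended half-site bound by ERR, AAGGTCA, was in 0 of the 9 windows and in 4.08% of all windows. Of the members that rose with DFO, Pgf and Adm hold a core at 1 start, and Apln and Vegfc hold none in these windows. Vegfa holds cores in the window of its downstream start and none in that of the upstream one. Bases outside these windows were not searched, so sites farther away are not covered. Vegfb and Fgf2, which did not pass with DFO, hold GCGTG.

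Vegfa, the main ligand for endothelial sprouting through the receptor Kdr, passed in 3 of the 4 comparisons. Its intensity was 932 and 1019 in GFP, 1615 and 1619 in GFP-PGC-1α, 2431 and 2264 in GFP+DFO, and 2763 and 2691 in GFP-PGC-1α+DFO. The 4 groups stood apart on every array and rose in that order. PGC-1α without DFO raised it by 0.73 ± 0.09 on the log2 scale (SE, limma adjusted p = 0.0120), and DFO in GFP myotubes by 1.27 ± 0.09 (limma adjusted p = 0.000816). DFO in PGC-1α myotubes raised it by 0.75 ± 0.09 (limma adjusted p = 0.00364). With DFO present the log2 difference between PGC-1α and GFP was 0.22 ± 0.09, with a 95% interval of -0.01 to 0.44, and did not pass (limma adjusted p = 0.169). Scaled to the spike-ins that last difference was 0.83 and passed (limma adjusted p = 0.0253), while the PGC-1α call without DFO was lost (0.91, limma adjusted p = 0.0567). That call was also lost, with a log2 change of 0.67 to 0.73, when GFP replicate 1 or either GFP-PGC-1α array was left out (limma adjusted p = 0.0665 to 0.0840). A further probe set of Vegfa gave log2 changes of 0.60, 1.14, 0.38 and 0.91 for PGC-1α without DFO, DFO with GFP, PGC-1α with DFO and DFO with PGC-1α, and passed for both DFO effects only.

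Vegfb encodes a ligand of the receptor Flt1 linked to fatty acid uptake by the endothelium. It read 197 and 191 in GFP, 446 and 584 in GFP-PGC-1α, 270 and 281 in GFP+DFO, and 412 and 329 in GFP-PGC-1α+DFO. It was the only member highest in GFP-PGC-1α beside Angpt1, and here too no groups overlapped. PGC-1α without DFO raised it by 1.39 ± 0.17 (log2 ± SE, limma adjusted p = 0.0124), a call lost when either GFP array or GFP-PGC-1α replicate 2 was left out (limma adjusted p = 0.0527 to 0.0720). With DFO the difference between PGC-1α and GFP was 0.42 ± 0.17 (limma adjusted p = 0.172), and 1.03 with limma adjusted p = 0.0370 on the spike-in scale. The DFO effects had opposite signs, 0.51 ± 0.17 in GFP and -0.47 ± 0.17 in PGC-1α myotubes, and neither passed (limma adjusted p = 0.0988 and 0.113). Both passed with dim genes left out (limma adjusted p = 0.0199 and 0.0263) and with trend and robust options of eBayes (0.0160 and 0.0228), and the first also with the compared groups alone (0.0397). Scaled to the spike-ins the second was -0.031.

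Vegfc, the lymphatic ligand of the receptor Flt4, was dim. Its intensity was 53.8 and 34.7 in GFP, 65.6 and 79.7 in GFP-PGC-1α, 92.4 and 88.6 in GFP+DFO, and 201 and 211 in GFP-PGC-1α+DFO. Both GFP arrays lay below the array median, and both arrays of the doubly treated group stood well above all others. DFO raised it by 1.07 ± 0.23 in GFP myotubes (limma adjusted p = 0.0248) and by 1.51 ± 0.23 in PGC-1α myotubes (limma adjusted p = 0.00767). PGC-1α with DFO raised it by 1.19 ± 0.23 (limma adjusted p = 0.0232), and without DFO the difference was 0.74 ± 0.23 (limma adjusted p = 0.108). Leaving out either GFP+DFO array ended the calls for DFO in GFP myotubes and for PGC-1α with DFO (limma adjusted p = 0.107 to 0.119), and leaving out either GFP-PGC-1α+DFO array ended the latter (0.0664 and 0.0961). Scaling to the spike-ins or fitting the compared groups alone ended the DFO call in GFP myotubes (limma adjusted p = 0.0612 and 0.0849). On the 2 further probe sets the log2 changes were 1.26 to 1.56 in all 4 comparisons, of which 1 probe set passed for both DFO effects and the other for none.

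Pgf, the gene for placental growth factor, another ligand of Flt1, had the widest range of the set. It read 30.9 and 49.99 in GFP and 50.1 and 57.4 in GFP-PGC-1α, all below the array median. With DFO it read 1259 and 1271 in GFP and 2978 and 2621 in PGC-1α myotubes. The groups did not overlap, though GFP and GFP-PGC-1α almost met. DFO raised it by 5.01 ± 0.24 on the log2 scale in GFP (limma adjusted p = 0.000322) and by 5.70 ± 0.24 in PGC-1α myotubes (limma adjusted p = 0.000187). Since the untreated level is near background, these folds depend on how dim values are treated: with every value floored at its array's median, the rise in GFP myotubes was 4.34. With DFO, where Pgf was bright, PGC-1α raised it by 1.14 ± 0.24 (limma adjusted p = 0.0307), and without DFO the difference was 0.45 ± 0.24 (limma adjusted p = 0.297). The call for PGC-1α with DFO was lost when any array of GFP-PGC-1α, GFP+DFO or GFP-PGC-1α+DFO was left out (log2 change 1.05 to 1.24, limma adjusted p = 0.0612 to 0.144) and when every probe set was fitted at once (0.0545).

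Apln encodes apelin, a peptide whose receptor marks growing vessels. Its intensity was 55.3 and 39.2 in GFP, 60.5 and 58.0 in GFP-PGC-1α, 1340 and 1311 in GFP+DFO, and 1133 and 1076 in GFP-PGC-1α+DFO. It went from near the array median to 1076 or more with DFO under either virus. The rise was 4.83 ± 0.17 on the log2 scale in GFP (limma adjusted p = 0.000205) and 4.22 ± 0.17 in PGC-1α myotubes (limma adjusted p = 0.000172). Floored at the array median, the rise in GFP was 4.41. The PGC-1α arrays lay below the GFP arrays with DFO, but the difference of -0.26 ± 0.17 did not pass (limma adjusted p = 0.367) and was 0.35 when scaled to the spike-ins. Without DFO the PGC-1α difference was 0.35 ± 0.17 (limma adjusted p = 0.263).

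Adm encodes adrenomedullin, a vasodilator peptide that acts on the receptor Calcrl with a RAMP protein. On its lead probe set it read 77.7 and 61.7 in GFP, 83.7 and 78.3 in GFP-PGC-1α, 183 and 182 in GFP+DFO, and 188 and 182 in GFP-PGC-1α+DFO. Both DFO groups stood above both groups without it, and overlapped each other. DFO raised it by 1.39 ± 0.13 in GFP (limma adjusted p = 0.00186) and by 1.19 ± 0.13 in PGC-1α myotubes (limma adjusted p = 0.00278). PGC-1α made a difference of 0.23 ± 0.13 without DFO and 0.03 ± 0.13 with it, and passed in neither case (limma adjusted p = 0.327 and 0.929). The lead probe set is of a kind whose probes can also match other transcripts. The further probe set of Adm was dimmer without DFO, at 14.9 to 25.3, similar with DFO at 158 to 181, and so gave rises of 3.13 ± 0.31 and 3.15 ± 0.31 (limma adjusted p = 0.00464 and 0.00377).

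Angpt1, the Tie2 agonist that stabilises vessels, went the other way. Its intensity was 952 and 1295 in GFP, 1382 and 1421 in GFP-PGC-1α, 375 and 351 in GFP+DFO, and 133 and 119 in GFP-PGC-1α+DFO. All 4 groups stood apart, and the doubly treated arrays were the lowest. DFO lowered it by 1.61 ± 0.17 in GFP, that is a log2 change of -1.61 (limma adjusted p = 0.00243), and the change was -3.48 ± 0.17 in PGC-1α myotubes (limma adjusted p = 0.000246). PGC-1α changed it by 0.34 ± 0.17 without DFO, which did not pass (limma adjusted p = 0.261), and by -1.53 ± 0.17 with DFO (limma adjusted p = 0.00461). The further probe set also fell with DFO, by -1.59 in GFP and -2.15 in PGC-1α myotubes, but its change with PGC-1α under DFO was smaller at -0.50 ± 0.11 (limma adjusted p = 0.0490). Its arrays read 298 to 322 without DFO, 96.5 and 104 in GFP+DFO, and 70.3 and 70.5 in GFP-PGC-1α+DFO, the last pair close to the array median.

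Angpt2, which in most settings opposes Angpt1 at Tie2, was dim and noisy. It read 28.4 and 53.1 in GFP, 21.1 and 23.5 in GFP-PGC-1α, 80.7 and 87.4 in GFP+DFO, and 34.7 and 9.80 in GFP-PGC-1α+DFO. The GFP+DFO arrays stood above all others and were the only ones above the array median. No contrast passed as fitted: the log2 change was 1.11 ± 0.63 for DFO in GFP (limma adjusted p = 0.283) and -2.19 ± 0.63 for PGC-1α with DFO (limma adjusted p = 0.0724), with a 95% interval of -3.78 to -0.59. The latter passed with floors at the 25th percentile and the median of each array (-1.70 and -0.44, limma adjusted p = 0.0197 and 0.00198), with trend and robust options (0.00645) and without GFP-PGC-1α+DFO replicate 1 (-3.10, 0.0172). The former passed with the floor at the median (0.43, limma adjusted p = 0.00158). At that floor both arrays of GFP and of GFP-PGC-1α+DFO took their array's median, which removes their own spread. A second probe set read 1.74 to 23.1 on all arrays.

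Fgf2, a heparin-bound fibroblast growth factor, was near or below the array median everywhere except on 1 array. It read 85.3 and 43.3 in GFP, 44.3 and 42.2 in GFP-PGC-1α, 51.3 and 46.0 in GFP+DFO, and 60.9 and 48.4 in GFP-PGC-1α+DFO. Its groups mostly overlapped and no contrast passed (limma adjusted p = 0.400 to 0.803). The 95% interval for DFO in GFP myotubes was -1.16 to 0.51, which leaves changes within that range possible.

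**Figure D2:**
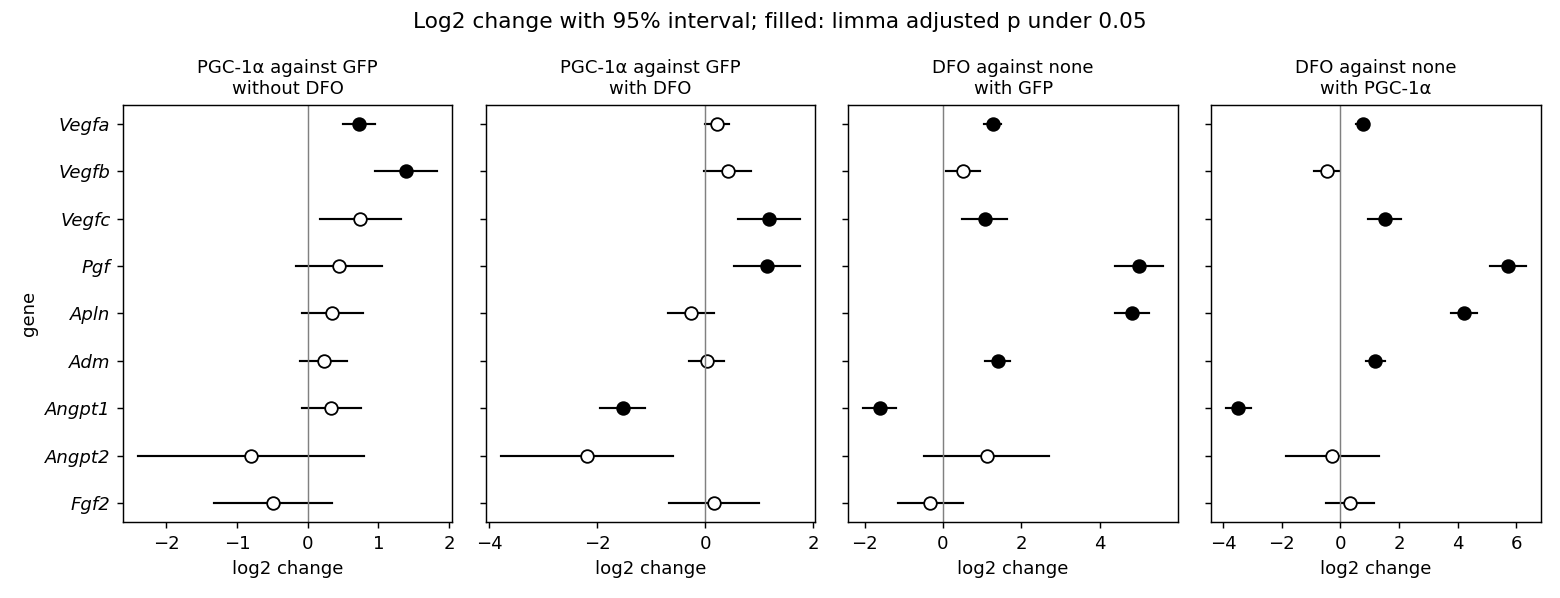
Log2 change of each lead probe set in the 4 comparisons, with its 95% interval from limma, a filled point where the adjusted p over all genes was under 0.05. The axes differ between panels. Pgf and Apln changed by 4.22 to 5.70 with DFO, while changes with PGC-1α that passed lay between -1.53 and 1.39.

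**Figure D3:**
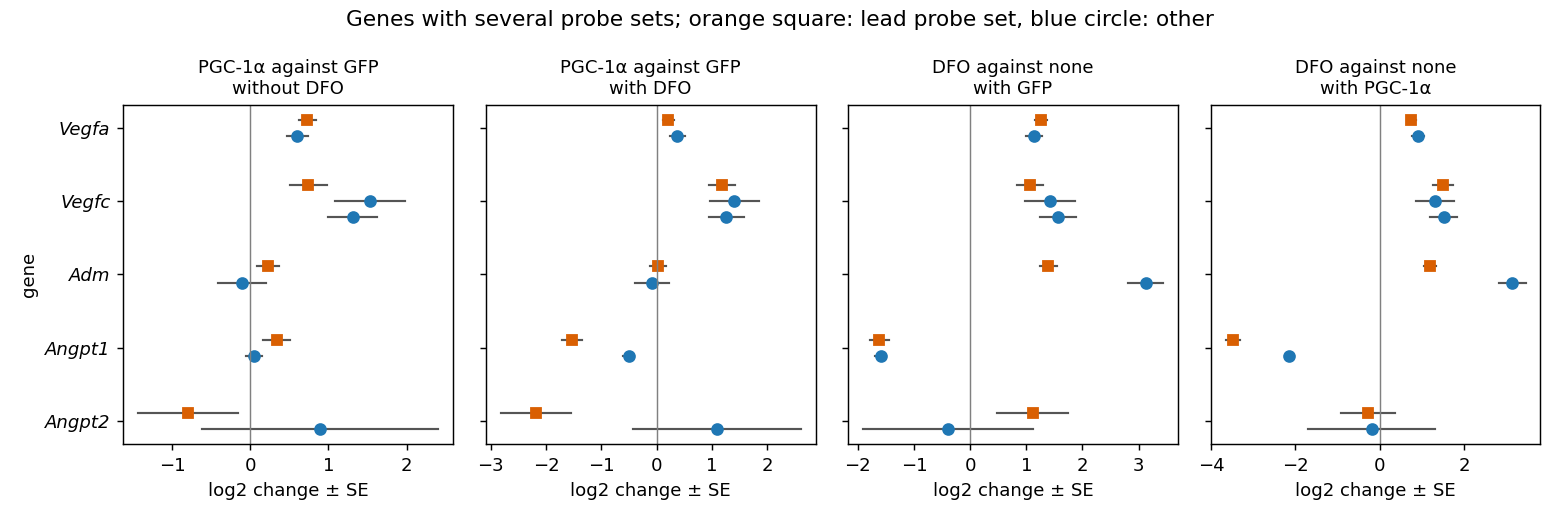
Log2 change ± SE of every probe set of the 5 genes that have more than 1, an orange square for the lead probe set and a blue circle for the others, each fitted with all probe sets at once. The probe sets of Vegfa lie close together, Adm rises 1.39 or 3.13 with DFO in GFP myotubes depending on the probe set, and those of Angpt1 differ for PGC-1α with DFO, at -1.53 and -0.50, and for DFO with PGC-1α, at -3.48 and -2.15.

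Whether PGC-1α altered the response to DFO was asked by the interaction, the DFO effect in PGC-1α myotubes minus that in GFP myotubes. It passed by limma in 0 of the 9 members and in 101 of all genes (0.231% with a higher and 0.324% with a lower response). Before adjustment, 3165 genes had p under 0.05, of which 3 were members. They were Angpt1 at -1.86 ± 0.23 (limma adjusted p = 0.0564), Vegfb at -0.98 ± 0.25 (limma adjusted p = 0.152) and Vegfa at -0.51 ± 0.13 (limma adjusted p = 0.148). For Vegfa the point estimate of each effect was smaller in the presence of the other treatment, but this difference did not pass and was -0.07 on the spike-in scale. It passed with trend and robust options, with dim genes left out and with the floor at the median (limma adjusted p = 0.00479 to 0.0267), and that of Vegfb did in the first and second of these (0.00939 and 0.0222). The number of members that passed changed with the settings, from 0 up to 5, and Angpt1 passed with quantile normalization, with dim values floored, with dim genes left out and with eBayes options for trend and robustness (limma adjusted p = 3.2e-05 to 0.0461). The further probe set of Angpt1 gave -0.55 ± 0.15 (limma adjusted p = 0.259), and that of Vegfa -0.22 ± 0.19 (limma adjusted p = 0.671). The interaction of Pgf was 0.69 ± 0.34, of Vegfc 0.44 ± 0.32, of Apln -0.61 ± 0.24 and of Adm -0.20 ± 0.18, none of which passed (limma adjusted p = 0.288 to 0.630). Further probe sets gave the opposite sign for Vegfc (-0.12 ± 0.63 and -0.04 ± 0.45) and for Adm (0.03 ± 0.44), and none passed.

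Genes with the most similar pattern were sought for 4 members among 2748 genes above the median level whose group means span at least 1 on the log2 scale. Likeness was the root mean square difference between centred log2 means over the 4 groups, so it describes 4 points only. Nearest to Apln were Tmem45a (0.0758) and Ankrd37 (0.0782), the latter a well-known target of HIF-1, which averaged 73.8 in GFP, 88.4 in GFP-PGC-1α, 1808 in GFP+DFO and 1592 in GFP-PGC-1α+DFO. Vwa1, a matrix protein gene, was among the 3 nearest to both Apln (0.186) and Pgf (0.601). No gene lay as close to Pgf: the nearest were Fosl1 (0.477), a subunit of the AP-1 factor, and the early-response gene Ier3 (0.493). Vegfa was matched by Ntmt1 (0.0692), an N-terminal methyltransferase gene, Rnf24 (0.0714) and Cyhr1 (0.0774). Vegfb was matched by Ankrd9 (0.0483), S100a13 (0.0698) and the deubiquitinase gene Usp25 (0.0788). S100a13, whose product takes part in the release of FGF1, averaged 1122 in GFP, 2629 in GFP-PGC-1α, 1594 in GFP+DFO and 1991 in GFP-PGC-1α+DFO.

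The receptors of these ligands were examined in the same cells. Over all genes limma called 24.2% in either direction for DFO with GFP, 25.6% for DFO with PGC-1α, 9.73% for PGC-1α without DFO and 18.9% for PGC-1α with DFO, and the counts of this and the following lists stand against those shares. Of 16 receptors measured, 2 rose and 2 fell with DFO in GFP, 4 rose and 3 fell with DFO in PGC-1α myotubes, 1 rose and 2 fell with PGC-1α alone, and 2 rose and 1 fell with PGC-1α under DFO. Their median log2 change with DFO was -0.03 in GFP and 0.41 in PGC-1α myotubes. Fgfr1, a receptor of FGF2, rose with DFO from 423 to 1449 in GFP (log2 change 1.78, limma adjusted p = 0.00217) and from 383 to 1124 in PGC-1α myotubes (1.54, limma adjusted p = 0.00317), while Fgfr3 fell by 1.74 and 2.00 (limma adjusted p = 0.0199 and 0.0122). The falls of Fgfr3 lost their call when single arrays were left out (limma adjusted p = 0.0584 to 0.0999). Ramp3, a partner of the adrenomedullin receptor, rose with PGC-1α under DFO from 91.3 to 240 (1.39, limma adjusted p = 0.00601), a call lost without GFP+DFO replicate 1 (limma adjusted p = 0.0545). Kdr, the main VEGF-A receptor, read 86.7 to 159 over the 8 arrays and passed in no contrast.

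Most endothelial markers, those of the cells these factors act on, were dim. Of 9, 6 or 7 lay below the array median on both arrays of each group, with Pecam1 at 18.1 to 41.9 and Vwf at 11.2 to 27.2, while Cdh5 ranged from 24.1 to 78.9. Egfl7, at 296 to 407, and Kdr lay above the array median on every array, and Egfl7 made up much of the list's sum. Their summed intensity was 497 to 677 without DFO and 517 to 733 with it. Some markers of other cells moved with treatment, and their part in the results was not tested. Fibroblast markers (5 genes) summed to 558 to 650 in GFP and 473 to 500.2 in GFP-PGC-1α. With DFO they summed to 863 to 888 in GFP and 580 to 672 in PGC-1α myotubes. Col1a1 rose with DFO by 0.89 in GFP myotubes (limma adjusted p = 0.00634). There Pdgfra, Dpt, Thy1 and Lum changed by 0.34, -0.04, -0.68 and -1.51 and did not pass. Pericyte or smooth muscle markers (4 genes) summed to 494 to 568 in GFP-PGC-1α+DFO and 794 to 913 in the other groups. Pdgfrb changed by -1.59 with DFO in PGC-1α myotubes (limma adjusted p = 0.00333). There Rgs5, Cspg4 and Myh11 changed by -0.0016, 0.08 and 0.50 and did not pass. Macrophage markers (4 genes) summed to 1732 to 2041 without and 1946 to 2593 with DFO, a sum weighted to Csf1r, at 1273 to 2039. Cd68, at 31.4 to 86.5, was raised by 1.34 with DFO in GFP myotubes (limma adjusted p = 0.00380). There Adgre1, Csf1r and Ptprc changed by 0.21, 0.16 and 0.20 and did not pass.

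Other angiogenic ligands, 18 genes, also moved with DFO in both directions. In GFP myotubes 8 rose and 5 fell, in PGC-1α myotubes 7 rose and 5 fell, PGC-1α under DFO raised 3 and lowered 2, and PGC-1α alone changed 0 of the 18 by limma. Over the 18, the median log2 change with DFO was 0.53 in GFP and 0.61 in PGC-1α myotubes. Hbegf, an EGF-receptor ligand, rose from 159 to 672 in GFP (log2 change 2.08, limma adjusted p = 0.000300) and from 127 to 697 in PGC-1α myotubes (2.46, limma adjusted p = 0.000146). Angpt4, a further angiopoietin, fell as Angpt1 did, from 248 to 37.6 in GFP (-2.72, limma adjusted p = 0.000407) and from 233 to 27.6 in PGC-1α myotubes (-3.08, limma adjusted p = 0.000246). The Angpt4 averages with DFO lay below the array medians, so background limits the size of these falls. Tgfb2 fell from 452 to 93.5 and from 358 to 66.5 (-2.27 and -2.48, limma adjusted p = 0.00430 and 0.00306).

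Inhibitors of angiogenesis had no common direction. Of 13 measured out of 15 listed, 3 rose and 3 fell with DFO in GFP myotubes, and 3 rose and 4 fell in PGC-1α myotubes. PGC-1α alone raised 1 and lowered 1, and under DFO it lowered 2. Over the 13, the median log2 change with DFO was -0.10 and -0.13 under the 2 viruses. Timp3, which blocks VEGF-A binding to Kdr, rose with DFO from 676 to 2792 in GFP (2.05, limma adjusted p = 0.000554) and from 630 to 3069 in PGC-1α myotubes (2.29, limma adjusted p = 0.000351). Serpinf1, the gene for the anti-angiogenic protein PEDF, fell from 2888 to 966 and from 2996 to 1031 (-1.58 and -1.54, limma adjusted p = 0.000427 and 0.000372). Sema3a, a repellent that acts through neuropilin, was lowered by PGC-1α under DFO from 167 to 67.5 (-1.31, limma adjusted p = 0.00178).

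Some genes of the HIF pathway changed at the RNA level. Of 13 genes 6 rose with DFO in GFP, and 5 rose and 1 fell in PGC-1α myotubes, so that 7 of 13 did not pass in each comparison. PGC-1α lowered 2 without DFO, and with DFO raised 1 and lowered 2. The median log2 change of the list with DFO was 0.32 in GFP and 0.29 in PGC-1α myotubes, against -0.02 and 0.01 over all genes. Hif1a averaged 1855 in GFP, 1456 in GFP-PGC-1α, 2630 in GFP+DFO and 2772 in GFP-PGC-1α+DFO, with DFO effects of 0.50 (limma adjusted p = 0.00908) and 0.93 (limma adjusted p = 0.00121). The smaller of these lost its call when GFP replicate 1 or either GFP+DFO array was left out (limma adjusted p = 0.0502 to 0.0687) or on the spike-in scale (0.119). The prolyl hydroxylase genes that HIF itself induces rose with DFO: Egln1 from 987 to 3984 (2.01, limma adjusted p = 0.000300) and Egln3 from 1362 to 3398 (1.32, limma adjusted p = 0.000642) in GFP myotubes. Vhl, the ubiquitin ligase subunit that recognises hydroxylated HIF, rose by 1.11 and 1.43 (limma adjusted p = 0.00247 and 0.00100).

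Egln3 was also lower with PGC-1α, by 0.99 without DFO and by 1.22 with it, that is log2 changes of -0.99 (limma adjusted p = 0.00503) and -1.22 (limma adjusted p = 0.00156). The first of these lost its call on the spike-in scale (-0.81, limma adjusted p = 0.0575). Epas1, the gene for HIF-2α, was higher with PGC-1α under DFO, 107 against 47.7 (1.16, limma adjusted p = 0.0319), and 163 against 80.1 without DFO, which did not pass (1.02, limma adjusted p = 0.0657). The call under DFO was lost when any array but GFP-PGC-1α+DFO replicate 2 was left out (limma adjusted p = 0.0579 to 0.146), and with the replicate number as a block (0.0637). Arnt, the shared beta subunit, passed in no contrast (limma adjusted p = 0.0518 to 0.871).

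Among 11 ERR and PGC-1 factors, PGC-1α raised 4 and lowered 1 without DFO and raised 2 and lowered 2 with it, Ppargc1a itself among those raised. DFO raised 2 and lowered 1 in GFP, and raised 1 and lowered 2 in PGC-1α myotubes. Their median log2 change with PGC-1α was 0.41 without and 0.05 with DFO. Esrra, the gene for ERRα, rose with PGC-1α from 232 to 1074 (2.21, limma adjusted p = 0.00168) and with DFO present from 182 to 1194 (2.72, limma adjusted p = 0.000524). Ppargc1b, the gene for the related coactivator PGC-1β, fell with DFO from 558 to 80.6 in GFP and from 152 to 11.4 in PGC-1α myotubes (-2.84 and -3.73, limma adjusted p = 0.00358 and 0.00140).

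**Figure D4:**
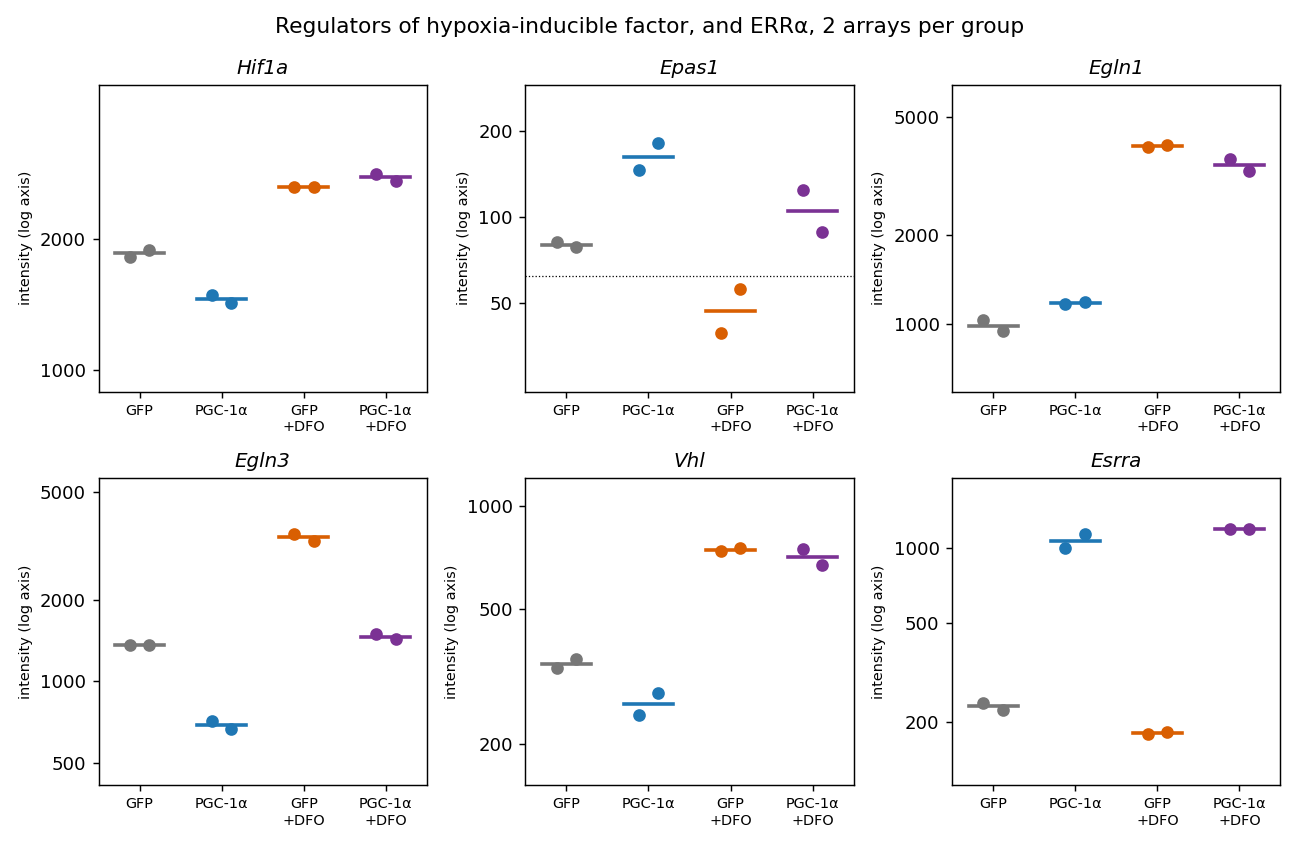
Deposited intensity on a log axis of 5 genes of the HIF pathway and of Esrra, with 1 point per array. A bar marks the geometric mean of the 2 arrays of a group, and a dotted line the median of the array medians where it lies in range. Egln1 and Vhl separate by DFO, Esrra separates by PGC-1α, and Egln3 is raised by DFO and lower with PGC-1α on every array.

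Genes that process VEGF and FGF or free them from the matrix, 17 in all, included 5 that rose and 1 that fell with DFO under either virus. PGC-1α raised 1 without DFO, and raised 2 and lowered 1 with it. The median log2 change with DFO was 0.23 in GFP and 0.12 in PGC-1α myotubes. Plat, the tissue plasminogen activator gene, rose from 377 to 1637 in GFP (2.12, limma adjusted p = 0.000311) and from 326 to 1689 in PGC-1α myotubes (2.37, limma adjusted p = 0.000182). Hpse, the heparanase gene, rose from 42.8 to 113 and from 30.1 to 109 (1.39 and 1.84, limma adjusted p = 0.00340 and 0.00129), and the heparan sulfate proteoglycan gene Sdc1 from 1197 to 2924 and from 919 to 3353 (1.29 and 1.86, limma adjusted p = 0.00115 and 0.000350).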

How the data were processed

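RNA of 8 cultures was measured on Affymetrix mouse arrays, 2 arrays in each of 4 groups taken from the labels. The deposited values are intensities on a linear scale, 1 per probe set. The authors' steps of summarising probes, correcting background and scaling are not given in the sources consulted, and a change in total RNA per culture cannot be read from such values. Of 45101 probe sets, 34945 had 1 gene symbol in the platform annotation, 932 several and 9160 none, and 64 were controls. The values were log2-transformed without a pseudocount or filter, and group means were fitted to the lead probe sets of 18193 genes with limma 3.58.1 (lmFit, eBayes; R 4.3.3), with 4 residual and 1.3 prior degrees of freedom. P-values are two-sided and Benjamini-Hochberg adjusted over all genes of a contrast. An exact permutation test of 2 arrays against 2 cannot give a two-sided p under 0.333, so the p-values rest on limma's pooled spread, and the number of arrays limits their precision. The labels do not say that replicate numbers pair the samples, and the main fit used no pairing. Deviations of same-numbered arrays correlated at -0.11 to 0.22 between groups, highest between the 2 DFO groups. With 2 arrays per group this cannot exclude a shared preparation.

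The named genes were all 9 members, up to 3 genes per list that passed with the largest change, the 3 genes most like Vegfa, Vegfb, Pgf and Apln, and Ppargc1a, Hif1a, Epas1, Arnt and Esrra. Ccn2, Kdr and the cell type markers printed were named after their values were seen. The members and lists were chosen with earlier results of these data known. Lists are described by counts and medians, with no set test. The alternatives were quantile normalization, scaling to the spike-ins, other choices of probe set, a filter or floor on dim values, other eBayes options, a replicate block, only the compared groups, and each array left out. A floor at the array median was added after seeing the data. The fit was checked on simulated data. Promoter windows are RefSeq's, GRCm38.p6. Plots were made in Python 3.11.15 using matplotlib 3.10.9.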

Additional observations from a re-analysis of the deposited data

Results flagged for a closer look

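In 3 members the arrays of one comparison all moved one way and those of its counterpart all moved the other way, as in 10.9% of all genes. PGC-1α arrays of Angpt1 lay above GFP without DFO and below it with DFO, and the difference between these effects was -1.86 ± 0.23 on the log2 scale, which did not pass (limma adjusted p = 0.0564). Apln showed the same order of arrays, with a difference of -0.61 ± 0.24 (limma adjusted p = 0.288). For Vegfb it was DFO that lay above with GFP and below with PGC-1α, with a difference of -0.98 ± 0.25 (limma adjusted p = 0.152).

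Ccn2, a matricellular ligand that binds VEGF, was the only gene of the 6 lists whose interaction passed, at -1.24 ± 0.12 (limma adjusted p = 0.0443). It read 496 and 548 in GFP, 517 and 518 in GFP-PGC-1α, 884 and 911 in GFP+DFO, and 386 and 371 in GFP-PGC-1α+DFO. The call was lost when any of the 8 arrays was left out (limma adjusted p = 0.0609 to 0.233), with the replicate block (0.126) and on the spike-in scale (-0.80, adjusted p = 0.229).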

How the results depend on the processing

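The DFO calls of Vegfa, Pgf, Apln, Adm and Angpt1 under either virus, of Vegfc in PGC-1α myotubes, and of Angpt1 for PGC-1α with DFO kept their direction and their side of the threshold in every setting run.

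Counts called by limma moved by over 1.5 times in several settings. For PGC-1α without DFO (1770) they were 508 on the spike-in scale, 940 with the mean of all probe sets per gene, 3524 with genes above the median level, 3461 with the floor at the median, 3746 with trend and robust options, and 0 with the compared groups alone (4531 at an unadjusted p under 0.05). For DFO with GFP (4409) the spike-in scale gave 2230. For PGC-1α with DFO (3446) the mean of probe sets gave 2213 and the compared groups alone 861. For DFO with PGC-1α (4662) the fit of every probe set called 7068 of 45037 probe sets (15.7%), a smaller share, and the compared groups alone 1942 genes. For the interaction (101) they were 216 with quantile normalization, 3 on the spike-in scale, 4 with the mean of probe sets, 58 without _x_at and _s_at probe sets, 11 probe sets with every probe set, 1316 with genes above the median level, 448 and 1373 with floors at the 25th percentile and the median, and 1467 with trend and robust options. With the replicate block, the counts were 1060 for PGC-1α without DFO and 3 for the interaction, and no call of a member changed. Those of Epas1 and Ccn2 ended.

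Members called for PGC-1α without DFO (2) were 1 on the spike-in scale and 0 with the compared groups alone. For PGC-1α with DFO (3) they were 5 on the spike-in scale and 6 with the floor at the median and with trend and robust options. For the interaction (0) they were 1 with quantile normalization and with the floor at the 25th percentile, 3 of the 5 tested with genes above the median level, 5 with the floor at the median and 3 with trend and robust options.

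With each array left out, the genes called were 304 to 2094, 2069 to 4695, 873 to 3431, 2637 to 4130 and 0 to 77 for the 5 contrasts in the order PGC-1α without DFO, DFO with GFP, PGC-1α with DFO, DFO with PGC-1α and interaction. The members called were 0 to 2, 5 to 6, 1 to 3, 6 to 6 and 0 to 0.

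The spike-in scale moved the median of all genes to 0.09, -0.02, 0.57, 0.45 and 0.43 in that order, and the calls higher and lower to 438 and 70, 1060 and 1170, 3802 and 242, 3398 and 803, and 2 and 1, against 902 and 868, 2140 and 2269, 1260 and 2186, 2079 and 2583, and 42 and 59.

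Of changes that had not passed, these reversed. For PGC-1α without DFO, Angpt2 was 0.044 with the mean of probe sets, Adm -0.11 on its other probe set, and Pgf -0.044 and Apln -0.031 with the floor at the median. For DFO with GFP, Fgf2 was 0.17 without GFP replicate 1 (-0.81 to 0.17 over the arrays left out). For PGC-1α with DFO, Apln was 0.35 on the spike-in scale, Adm -0.029 with the mean of probe sets and -0.083 on its other probe set, and Fgf2 -0.017 with the floor at the median and -0.0060 without GFP-PGC-1α+DFO replicate 1 (-0.0060 to 0.33 over the arrays left out). For DFO with PGC-1α, Angpt2 was 0.17 on the spike-in scale, 0.22 and 0.032 with floors at the 25th percentile and the median, and 0.64 without GFP-PGC-1α+DFO replicate 2 (-1.18 to 0.64 over the arrays left out). For the interaction, Adm was 0.24 on the spike-in scale and 0.027 on its other probe set. The causes were not tested.

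With the floor at the median, genes floored on every array keep only the spread of the array medians. That can lower the spread limma pools over genes, so a call gained with this floor is no added support. Signal over background limits Pgf, Apln, Vegfc and Adm without DFO, and Angpt2 and Fgf2 in every group. Background also limits list genes in groups where they averaged below the array medians. Examples are Angpt4 and Fgfr3 with DFO, Hpse without it, Epas1 in GFP+DFO and Ppargc1b in GFP-PGC-1α+DFO.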
